A study of Mus musculus with 9 samples.

Results

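The 10 genes described here encode enzymes that attach fatty acids to coenzyme A or place the resulting acyl chains into membrane phospholipids. They were chosen by gene symbol from 2 enzyme groups: the long-chain acyl-CoA synthetases Acsl1, Acsl3, Acsl4 and Acsl5, and the acyltransferases Lpcat1, Lpcat2, Lpcat3, Lpcat4, Agpat5 and Mboat1. All 10 were found among the 10762 genes of the deposited table. Messenger RNA was sequenced from B16.SIY, a melanoma cell line of the C57BL/6 mouse strain that expresses SIY, a model antigen, as a dsRED fusion. Stable lines were made by lentiviral infection and puromycin selection, so all 3 groups carry an integrated hairpin vector. The groups were cells with a control shRNA, cells with Decr2 shRNA1 and cells with Decr2 shRNA2, with 3 libraries each, numbered 0, 1 and 2 in the sample titles. No label says how many independent infections or clones stand behind a line. Although tumors are named in the title of the series, the samples themselves are labelled as a cell line kept in culture.

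A fatty acid has to be activated to its coenzyme A thioester before it can be oxidised, stored or built into a lipid, and the long-chain acyl-CoA synthetases carry out this step. Lysophospholipid acyltransferases then move the acyl group onto a lysophospholipid, which lets a cell exchange the fatty acids of its membranes without making the lipid anew. The choice of acyl chain matters for lipid peroxidation: ACSL4, which favours arachidonic acid, and LPCAT3, which places polyunsaturated chains into phospholipids, are well-known contributors to ferroptosis, whereas ACSL3 is known for activating monounsaturated fatty acids. DECR2, the target of both hairpins, is a peroxisomal 2,4-dienoyl-CoA reductase that acts in the breakdown of polyunsaturated fatty acids.

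Values are the deposited log2 expression values, where a difference of 1 is a doubling. They are compared between libraries for one gene and not between genes, because the scaling of the values by transcript length is not given in the sources used here. Decr2 stood at 3.96, 4.10 and 3.71 in the control libraries 0, 1 and 2, at 2.87, 2.51 and 3.18 with shRNA1, and at 0.84, 1.18 and 1.55 with shRNA2. The target was thus lowered to 47.6% of control with shRNA1 (limma adjusted p = 0.0195) and to 15.04% with shRNA2 (adjusted p = 0.000568). The shRNA1 call was lost without control library 1 (adjusted p = 0.0872), control library 2 (0.0537) or shRNA1 library 1 (0.058). All 10 melanocyte and melanoma markers looked for were listed, and 0 of them was called in any comparison. The levels of most were nevertheless unequal between groups in part of the libraries. Gpnmb was at 12.36, 12.13 and 12.12 in the control libraries, 12.24, 11.12 and 11.14 with shRNA1, and 12.46, 11.29 and 11.30 with shRNA2, so that it was lower with either hairpin in libraries 1 and 2. Pmel, Mlana, Dct and Slc45a2 were likewise lower with both hairpins in libraries 1 and 2 and not in library 0. Mitf, Sox10 and Tyrp1 were also lower with both hairpins in libraries 1 and 2. Tyrp1 with shRNA1 (12.68, 12.66 and 12.70) was below every control library (13.05, 12.94 and 12.91), library 0 included. Tyr was lower in libraries 1 and 2 with shRNA1, but not in library 1 with shRNA2. S100b was higher in every hairpin library than in the control library of the same number, with log2 differences of 1.56 with shRNA1 (limma adjusted p = 0.109) and 0.92 with shRNA2 (0.324). Of 34 markers of T, B, myeloid, fibroblast, endothelial, epithelial and erythroid cells, 5 were listed and 0 was called: the fibroblast genes Col1a1, Postn and Pdgfrb, the endothelial gene Plvap and the T cell gene Lck. Col1a1 was 3.26-fold of control with shRNA1 (adjusted p = 0.103) and 2.30-fold with shRNA2 (0.227), from values of 1.14, -1.13 and -1.33 in the control libraries. The part of these markers in the results on the 10 genes was not tested. The libraries numbered 0 stood together in every group: after removal of the group means, their deviations correlated at 0.387 to 0.644 with each other and at -0.629 to -0.244 with the other libraries. These are bulk libraries, in which fewer cells of a kind and less RNA per cell cannot be told apart.

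Lpcat2 rose, and Lpcat1 and Agpat5 fell, with both Decr2 hairpins, while the other 7 genes were not called with either hairpin. A gene was called at a limma adjusted p under 0.05, with the adjustment over all genes of the table. With shRNA1, 1 of the 10 genes rose and 2 fell, where 12.4% of all genes were called, 6.92% higher and 5.49% lower. With shRNA2 it was also 1 and 2, where 12.9% of all genes were called, 7.27% higher and 5.67% lower. The same 3 passed with both hairpins in the same direction, against 7.55% of all genes, 4.54% higher and 3.01% lower. All 3 libraries lay outside the control range in 3 of 10 genes with shRNA1 (33.9% of all genes) and in 4 of 10 with shRNA2 (38.8%). All 6 hairpin libraries lay on 1 side of control in 3 of 10, 1 above and 2 below, against 22.9% of all genes, 12% above and 10.9% below. The average of both hairpins against control also called these 3, against 17.6% of all genes. Both comparisons use the same control libraries, so the calls with shRNA2 do not repeat those with shRNA1 independently. The median log2 difference of the 10 genes was 0.02 with shRNA1 and 0.007 with shRNA2, beside 0.002 and 0.005 for all genes, and the median absolute difference was 0.211 and 0.154, beside 0.181 and 0.178. Over the whole group of enzymes there was thus no common direction. In the authors' deposited table the same 3 genes had adjusted p-values under 0.05 in each comparison. Without the 3 libraries numbered 0, 6 of the 10 genes passed with shRNA1, 5 with shRNA2 and 5 in the average, where 34.5%, 37.3% and 41.4% of all genes were called.

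**Figure D1:**
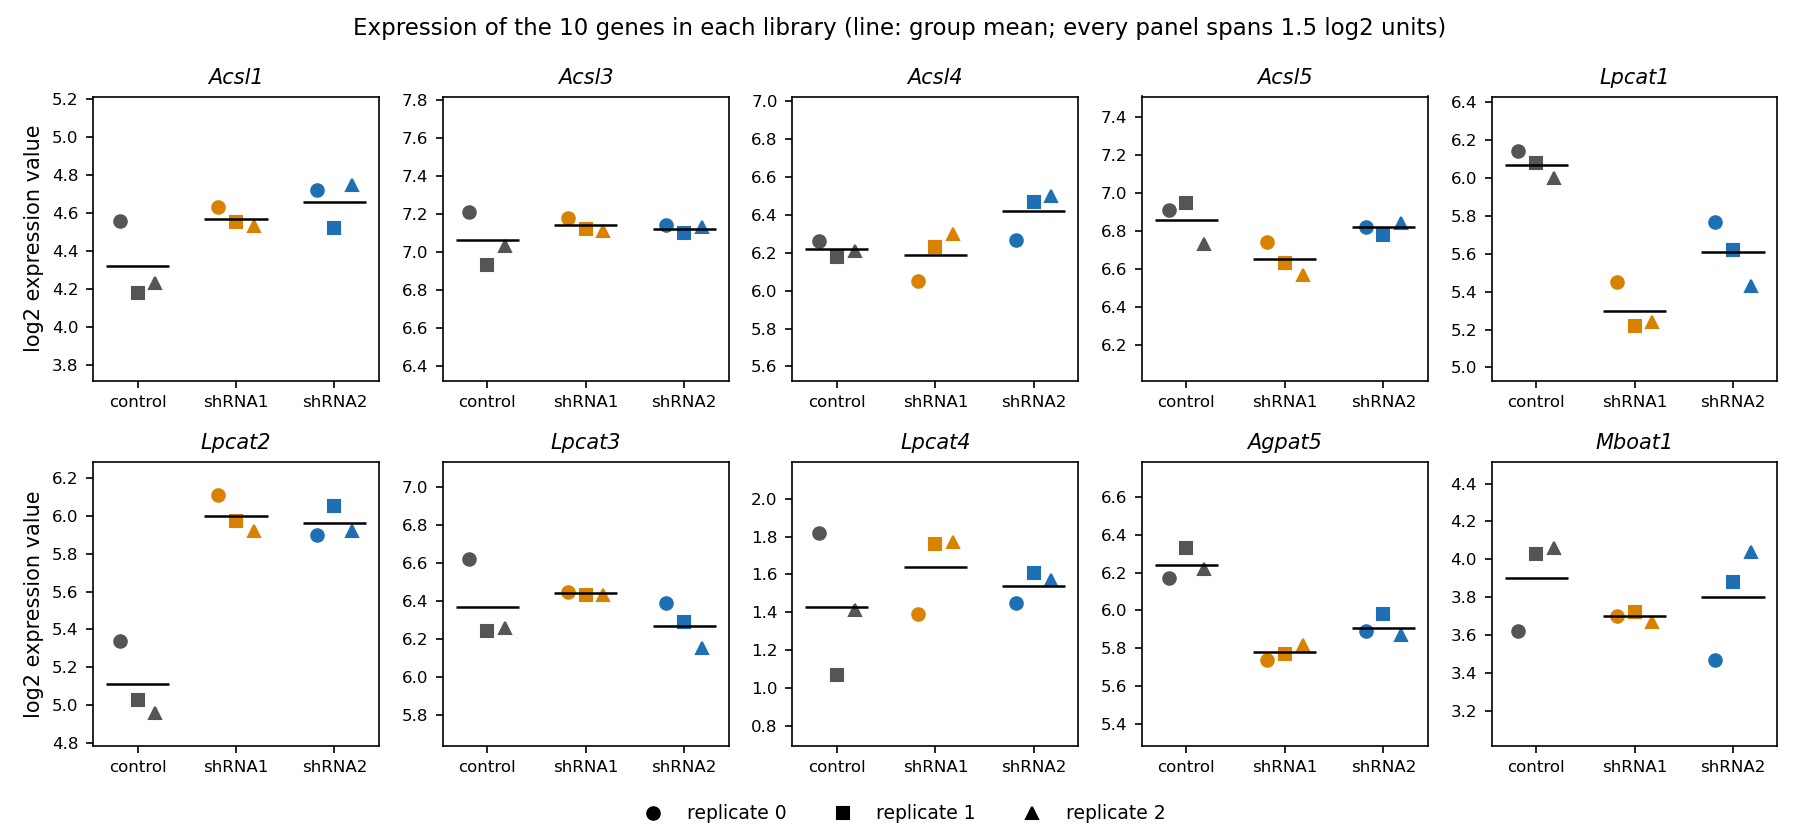
Log2 expression of each of the 10 genes (vertical axis) in the 9 libraries, grouped by hairpin, with the group mean. For Lpcat2 all 6 Decr2 hairpin libraries lie above the 3 control libraries, and for Lpcat1 and Agpat5 all 6 lie below.

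Lpcat2 encodes a lysophosphatidylcholine acyltransferase that also makes platelet-activating factor and is best known from inflammatory cells. Its log2 values were 5.34, 5.03 and 4.96 in the control libraries 0, 1 and 2, 6.11, 5.97 and 5.92 with shRNA1, and 5.90, 6.05 and 5.92 with shRNA2. Every library of either Decr2 hairpin was above every control library, and the ranges of both hairpins overlapped each other. The group means were 5.11 ± 0.20, 6.00 ± 0.10 and 5.96 ± 0.08 (SD, n = 3 each). Expression was 1.85-fold that of control with shRNA1 (95% interval 1.56 to 2.19, limma adjusted p = 0.0028). With shRNA2 it was 1.80-fold (1.52 to 2.13, adjusted p = 0.00316). Within libraries of the same number, the log2 rise was 0.76, 0.94 and 0.95 with shRNA1 and 0.56, 1.03 and 0.96 with shRNA2, smallest for number 0 with either hairpin. The call held when any 1 of the 9 libraries was left out, with adjusted p-values up to 0.0189 for shRNA1 and 0.0218 for shRNA2. The gene lies at chr8:92855339-92919279 on the plus strand (GENCODE M21, GRCm38), and its exons overlap Gm45472 on the opposite strand, a gene not analysed here.

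Lpcat1 encodes the acyltransferase that makes the saturated phosphatidylcholine of lung surfactant and also remodels phosphatidylcholine elsewhere. It stood at 6.14, 6.08 and 6.00 in the control libraries, 5.45, 5.22 and 5.24 with shRNA1, and 5.77, 5.62 and 5.43 with shRNA2. All 6 hairpin libraries were below all 3 control libraries, and shRNA2 library 2 lay within the shRNA1 range while shRNA2 libraries 0 and 1 lay above it. Means were 6.07 ± 0.07, 5.30 ± 0.13 and 5.61 ± 0.17 (SD, n = 3 each). Lpcat1 fell to 58.8% of control with shRNA1, a log2 difference of -0.77 with SE 0.105 (limma adjusted p = 0.00418). With shRNA2 it fell to 72.4%, a difference of -0.47 with SE 0.105 (adjusted p = 0.0229). The fall was present in each number: 0.69, 0.86 and 0.76 on the log2 scale with shRNA1, and 0.37, 0.46 and 0.57 with shRNA2 for libraries 0, 1 and 2. The shRNA1 call held without any single library, with adjusted p-values up to 0.0246. The shRNA2 call did not: adjusted p rose to 0.0617, 0.0853 and 0.064 without control library 0, 1 or 2, and to 0.0738 and 0.0833 without shRNA2 library 1 or 2, with differences between -0.55 and -0.38 over all omissions. The gene lies at chr13:73467197-73516422 on the plus strand, and its exons overlap no other annotated gene.

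Agpat5 encodes an acyltransferase that places a second acyl chain on lysophosphatidic acid, a step in the making of new phospholipids and triglycerides. Its values were 6.17, 6.33 and 6.22 in the control libraries, 5.74, 5.77 and 5.82 with shRNA1, and 5.89, 5.98 and 5.87 with shRNA2. The 3 groups did not overlap at all: control was highest, shRNA2 next and shRNA1 lowest. The difference between both hairpins was not called (limma adjusted p = 0.619). The means were 6.24 ± 0.08, 5.78 ± 0.04 and 5.91 ± 0.06 (SD, n = 3 each). Agpat5 fell to 72.5% of control with shRNA1 (log2 difference -0.46, SE 0.073, limma adjusted p = 0.00661) and to 79.6% with shRNA2 (-0.33, SE 0.073, adjusted p = 0.0216). Within numbers 0, 1 and 2 the log2 fall was 0.43, 0.57 and 0.40 with shRNA1 and 0.28, 0.35 and 0.36 with shRNA2. Omission of single libraries left the shRNA1 call in place, with adjusted p-values up to 0.0384. For shRNA2 it did not hold without control library 1 (adjusted p = 0.0958) or 2 (0.0752), or without shRNA2 library 0 (0.0526), 1 (0.0511) or 2 (0.0866). The gene lies at chr8:18846277-18891361 on the plus strand, and its exons overlap Gm35934 on the opposite strand, not analysed here.

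**Figure D2:**
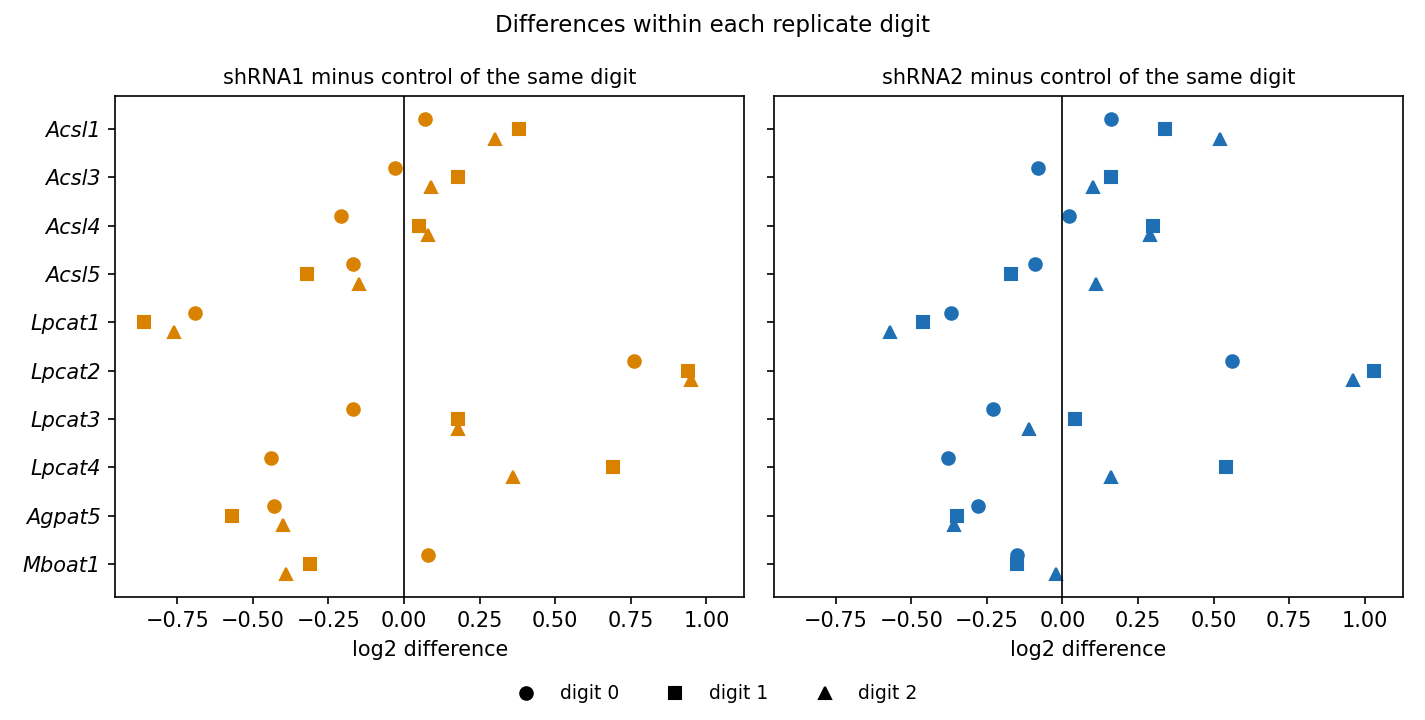
Log2 difference (horizontal axis) from the control library of the same number, called digit in the plot (0, 1 or 2), for each of the 10 genes, with shRNA1 and shRNA2 shown apart. The points of Lpcat2 are all above 0 and those of Lpcat1 and Agpat5 all below, those of Acsl1 are all above 0 but smaller, and those of the other 6 genes lie on both sides.

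Sequences upstream of 3 LPCAT genes are given because Lpcat2 rose, Lpcat1 fell and Lpcat3 was not called, although all 3 encode enzymes that acylate lysophospholipids. They come from RefSeq (GRCm38.p6), run 5′ to 3′ on the plus strand and stop before the first annotated transcribed base. Capitals mark the CCAAT box and the GC box GGGCGG, on either strand. The stretches are chr8:92855083-92855332 for Lpcat2 (250 bases, 51.2% G or C), chr13:73466981-73467196 for Lpcat1 (216 bases, 57.9%) and chr6:124662854-124663026 for Lpcat3 (173 bases, 68.8%).
Lpcat2: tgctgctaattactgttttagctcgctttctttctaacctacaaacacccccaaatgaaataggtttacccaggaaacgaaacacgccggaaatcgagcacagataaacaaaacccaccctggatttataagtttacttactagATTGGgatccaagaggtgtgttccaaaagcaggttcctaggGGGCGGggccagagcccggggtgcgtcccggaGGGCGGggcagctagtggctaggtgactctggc
Lpcat1: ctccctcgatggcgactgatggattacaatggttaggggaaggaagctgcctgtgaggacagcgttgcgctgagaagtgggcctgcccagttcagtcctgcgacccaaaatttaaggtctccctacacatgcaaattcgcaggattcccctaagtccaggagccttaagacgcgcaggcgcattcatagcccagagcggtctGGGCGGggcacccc
Lpcat3: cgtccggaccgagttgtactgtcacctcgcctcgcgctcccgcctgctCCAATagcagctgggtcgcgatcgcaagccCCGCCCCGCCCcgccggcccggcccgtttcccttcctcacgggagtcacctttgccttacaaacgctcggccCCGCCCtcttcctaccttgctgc
The Lpcat2 stretch holds 1 CCAAT box and 2 GC boxes, the Lpcat1 stretch 1 GC box and 0 CCAAT boxes, and the Lpcat3 stretch 1 CCAAT box and 3 GC boxes. The stretches differ in length, so these counts cannot be ranked against each other. Over the full windows, from 250 bases before to 50 bases after the start, 9 of the 10 genes had an entry, with 2 windows for Acsl1 and thus 10 in all. Agpat5 had no entry. In these windows of equal length, Lpcat2, Lpcat1 and Lpcat3 held 2, 3 and 6 GC boxes and 1, 0 and 4 CCAAT boxes. On both strands, the CCAAT box was found in 6 of the 10 windows and in 37.4% of all 32851 windows, and the GC box in 8 of 10 and in 35.7%. The 8 windows with a GC box held 54.7% to 79.0% G or C, where the median of all windows was 52.7%. All windows were counted, whether or not their gene is in the deposited table. The part of base composition in these shares was not tested. The following were found in 0 of 10 windows: the C/EBP-ATF response element TGATGNAAN (3.95% of all windows), the cyclic AMP response element TGACGTCA (1.79%), the AP-1 site TGANTCA (7.81%) and the E-box CACGTG (7.15%). The shorter TGACG, which every TGACGTCA also contains, was found in 2 windows, those of Acsl4 and Lpcat1, and in 20.8% of all. The sterol response element TCACNCCAC was found in 1, at the second Acsl1 start, and in 1.24% of all. These matches describe the letters of the windows and no binding was measured.

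Of the acyl-CoA synthetases, none was called with either hairpin. Acsl1, which activates long-chain saturated and monounsaturated fatty acids at mitochondria and the endoplasmic reticulum, stood at 4.56, 4.18 and 4.23 in the control libraries, 4.63, 4.55 and 4.53 with shRNA1, and 4.72, 4.52 and 4.75 with shRNA2. Control library 0 lay inside the range of both hairpins, and control libraries 1 and 2 lay below every hairpin library. The log2 difference was 0.25 (95% interval -0.01 to 0.52, limma adjusted p = 0.197) with shRNA1, 0.34 (0.07 to 0.60, adjusted p = 0.0925) with shRNA2 and 0.29 in the average (adjusted p = 0.0763). With the library number as a block, Acsl1 passed with shRNA2 (adjusted p = 0.0354) and in the average (0.0288). It also passed in both when control library 0 was left out, with adjusted p-values of 0.0326 and 0.0251. Without all 3 libraries numbered 0 it passed with each hairpin, at 0.34 (adjusted p = 0.027) and 0.43 (0.00951). The gene lies at chr8:46471037-46536051 on the plus strand, and Gm45244 overlaps its exons on the opposite strand.

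Acsl4, the arachidonate-preferring synthetase, stood at 6.26, 6.18 and 6.21 in the control libraries, 6.05, 6.23 and 6.30 with shRNA1, and 6.27, 6.47 and 6.50 with shRNA2. The shRNA1 values surrounded those of control, and the shRNA2 values were all above them, library 0 only just. The log2 difference was -0.02 with shRNA1 (95% interval -0.23 to 0.18, limma adjusted p = 0.886) and 0.20 with shRNA2 (-0.01 to 0.40, adjusted p = 0.181). The differences within numbers 0, 1 and 2 were -0.21, 0.05 and 0.08 with shRNA1 and 0.02, 0.30 and 0.29 with shRNA2, lowest for number 0 in both. Without the libraries numbered 0 the shRNA2 difference was 0.29 and passed (adjusted p = 0.00545), while the shRNA1 difference was 0.07 and did not (0.391). Acsl4 lies on the minus strand of the X chromosome at chrX:142317993-142390535, with no gene overlapping its exons.

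Acsl3, which activates fatty acids at the endoplasmic reticulum and lipid droplets, held 7.21, 6.93 and 7.03 in the control libraries, 7.18, 7.12 and 7.11 with shRNA1, and 7.14, 7.10 and 7.13 with shRNA2. All hairpin values lay within the control range. The intervals of the log2 difference ran from -0.10 to 0.26 with shRNA1 and from -0.12 to 0.24 with shRNA2, so that changes beyond these bounds are outside the 95% intervals, and smaller ones in either direction are not distinguished. The exons of Acsl3 (chr1:78657825-78707743, plus strand) overlap those of Utp14b on the same strand. Utp14b fell by 0.73 with shRNA1 (limma adjusted p = 0.00809) and by 0.59 with shRNA2 (adjusted p = 0.0169) on the log2 scale, and how reads were divided between both genes is not given in the sources used here.

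Acsl5, a synthetase of mitochondria and the endoplasmic reticulum that is abundant in the intestine, stood at 6.91, 6.95 and 6.73 in the control libraries, 6.74, 6.63 and 6.57 with shRNA1, and 6.82, 6.78 and 6.84 with shRNA2. The shRNA1 range touched the lowest control library, and the shRNA2 range lay inside that of control. The log2 difference was -0.21 with shRNA1 (95% interval -0.40 to -0.03, limma adjusted p = 0.116) and -0.05 with shRNA2 (-0.23 to 0.13, adjusted p = 0.742). Without the libraries numbered 0 the shRNA1 difference was -0.24 and passed (adjusted p = 0.0452). Zdhhc6 overlaps the exons of Acsl5 (chr19:55251938-55297720, plus strand) on the opposite strand and was not called with shRNA1 or shRNA2 (log2 differences -0.001 and -0.15).

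Lpcat3, the acyltransferase that prefers polyunsaturated chains, was at 6.62, 6.24 and 6.26 in the control libraries, 6.45, 6.43 and 6.43 with shRNA1, and 6.39, 6.29 and 6.15 with shRNA2. Control library 0 was the highest of all 9 libraries, and the shRNA2 values were all below those of shRNA1. The log2 difference from control was 0.06 with shRNA1 (95% interval -0.18 to 0.31, limma adjusted p = 0.738) and -0.10 with shRNA2 (-0.35 to 0.15, adjusted p = 0.608). The difference between both hairpin lines was -0.16 (adjusted p = 0.723). Lpcat3 (chr6:124663027-124704418, plus strand) shares exonic sequence with Emg1 on the opposite strand, which was not called with either hairpin (log2 differences -0.08 and -0.18). Whether the counting used strand is not given in the sources used here.

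Lpcat4 encodes an acyltransferase for lysophosphatidylcholine and lysophosphatidylethanolamine, and Mboat1 one for lysophosphatidylethanolamine and lysophosphatidylserine. Lpcat4 (chr2:112239468-112247111, plus strand) had 1.82, 1.07 and 1.41 in the control libraries, 1.39, 1.76 and 1.77 with shRNA1, and 1.45, 1.61 and 1.57 with shRNA2. All 6 hairpin libraries lay within the range of the control libraries, and the standard error of the difference was 0.233, the highest of the 10 genes. The interval accordingly ran from -0.32 to 0.73 with shRNA1 and from -0.42 to 0.63 with shRNA2. Mboat1 (chr13:30136489-30246717, plus strand) had 3.62, 4.03 and 4.06 in the control libraries, 3.70, 3.72 and 3.67 with shRNA1, and 3.47, 3.88 and 4.04 with shRNA2. Here library 0 was the lowest of its group for control and for shRNA2, and the log2 differences were -0.21 (95% interval -0.58 to 0.17, limma adjusted p = 0.451) and -0.11 (-0.48 to 0.27, adjusted p = 0.723). Without the libraries numbered 0, Mboat1 passed with shRNA1 at -0.35 (adjusted p = 0.0262).

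**Figure D3:**
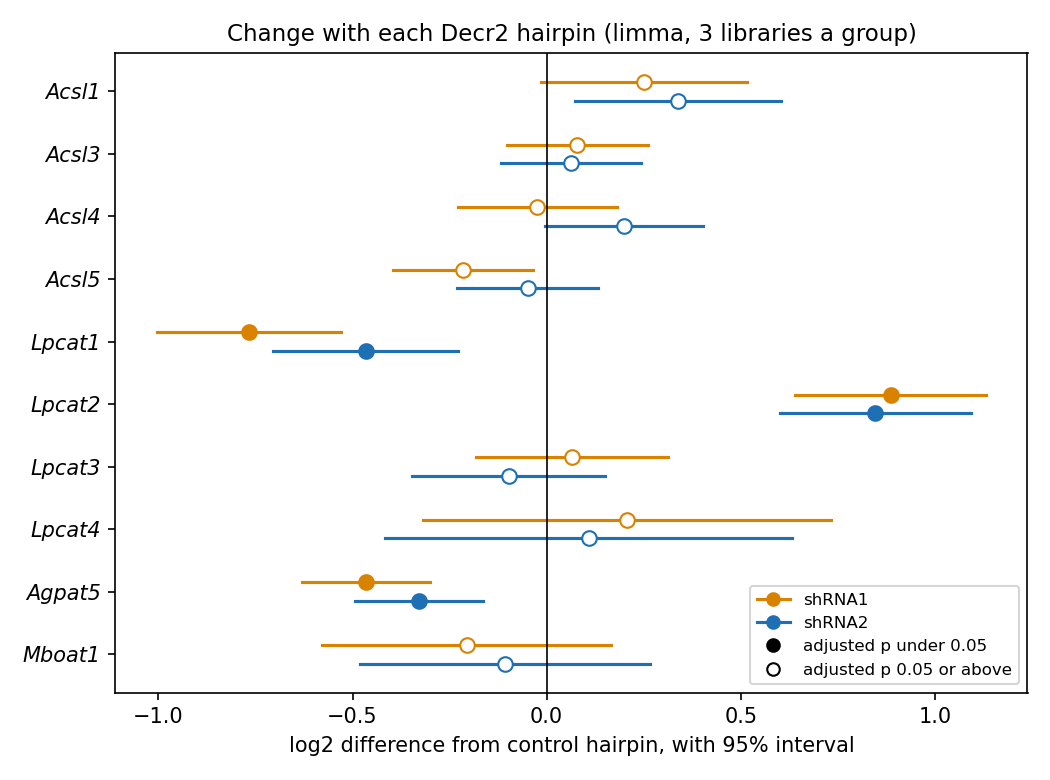
Log2 difference from control of each of the 10 genes with shRNA1 and with shRNA2 (horizontal axis), with 95% intervals from limma. The intervals of Lpcat2, Lpcat1 and Agpat5 lie away from 0 with both hairpins.

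The hairpins differed in how far they lowered Decr2, with a log2 difference of -1.66 between shRNA2 and shRNA1 (limma adjusted p = 0.0233). This call was lost without control library 1 (0.0591) or 2 (0.0516), shRNA1 library 1 (0.0804) or 2 (0.12) or shRNA2 library 0 (0.0555), 1 (0.137) or 2 (0.0708), and from those 2 groups only (0.116). In that comparison 0 of the 10 genes was called, beside 0.455% of all genes. At an unadjusted p under 0.05 there were 2, Lpcat1 and Acsl4, beside 10.0% of all genes. Lpcat1 was 0.30 higher on the log2 scale with shRNA2 than with shRNA1 (95% interval 0.06 to 0.54, adjusted p = 0.36), and Acsl4 was 0.22 higher (0.02 to 0.43, adjusted p = 0.444). For Lpcat2 the difference was -0.04 with an interval from -0.28 to 0.21, and for Agpat5 it was 0.14 with an interval from -0.03 to 0.30. All shRNA2 libraries lay outside the shRNA1 range in 3 of 10 genes, above it for Agpat5 and Acsl5 and below it for Lpcat3. The share of all genes with such a separation was not counted. The point estimates of Lpcat1 and Agpat5 lay closer to control with shRNA2, the hairpin with the lower Decr2 level. Each Decr2 level came with its own hairpin and line, so that these cannot be told apart.

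Across the 9 libraries, Lpcat1 and Agpat5 had a Pearson correlation of 0.899, and Lpcat2 had -0.817 with Lpcat1 and -0.927 with Agpat5. These values describe the same group differences again, because the points share the 3 groups and the library numbers. The genes of the table with the most similar pattern were Fam129a (r = 0.988), Fbxo4 (0.988) and Fxyd1 (0.984) for Lpcat2, Rab1a (0.983), Nt5c3b (0.978) and Tm9sf2 (0.977) for Lpcat1, and Tmem248 (0.989), Copb2 (0.988) and Timm29 (0.987) for Agpat5. These are the highest values over all genes of the table. For the genes that were not called, the highest value ran from 0.903 (Mboat1 with Id1) to 0.984 (Acsl4 with Zfp664).

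The neighbouring steps of the pathway were read from 6 lists with 88 measured genes. With shRNA1, 6 of them rose and 3 fell, which is 10.2% beside 12.4% of all genes. With shRNA2, 9 rose and 1 fell, 11.4% beside 12.9%. With both hairpins in the same direction, 4 rose and 1 fell, 5.68% beside 7.55%. The average of both hairpins called 12 higher and 2 lower, 15.9% beside 17.6%. Over all genes, the average called 9.69% higher and 7.89% lower. The comparison of shRNA2 with shRNA1 called 0 of the 88, beside 0.455% of all genes. The median log2 differences with shRNA1 and shRNA2 were 0.28 and 0.15 for the other acyl-CoA synthetases, -0.11 and -0.10 for the other acyltransferases, and 0.12 and 0.11 for the phospholipases and thioesterases. They were 0.08 and 0.003 for backbone synthesis, 0.04 and 0.04 for carriers, and -0.03 and -0.03 for partners of lipid peroxidation. With the library number as a block, 27 of the 88 were called with shRNA1, 18 with shRNA2, 30 in the average and 15 with both, or 30.7%, 20.5%, 34.1% and 17% beside 24.6%, 24%, 30.3% and 15.4% of all genes. Without the libraries numbered 0 the counts were 34, 33, 41 and 20, or 38.6%, 37.5%, 46.6% and 22.7% beside 34.5%, 37.3%, 41.4% and 23.7% of all genes. Leaving out 1 library gave between 3 and 15 calls with shRNA1, 3 and 17 with shRNA2, 5 and 19 in the average and 2 and 9 with both.

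Among the other acyl-CoA synthetases, 2 of 11 measured genes rose with both hairpins and none fell, beside 4.54% and 3.01% of all genes. Both were acetyl-CoA synthetases, which activate acetate: Acss1 in mitochondria and Acss2 in cytosol and nucleus. Acss1 went from 1.91, 2.10 and 1.95 in the control libraries to 3.16, 3.28 and 3.28 with shRNA1 and 3.02, 3.12 and 3.24 with shRNA2. Acss2 went from 4.03, 3.88 and 3.85 to 4.55, 4.47 and 4.47, and to 4.69, 4.65 and 4.72. For both genes every hairpin library was above every control library. The log2 rise of Acss1 was 1.25 (limma adjusted p = 0.00121) and 1.14 (0.00192), and that of Acss2 0.58 (0.00497) and 0.77 (0.00202), for shRNA1 and shRNA2, and each of these calls held without any single library. Slc27a6, a fatty acid transport protein with synthetase activity named after its values were seen, passed with shRNA2 at 0.34 (adjusted p = 0.0478) and did not with shRNA1 at 0.33 (0.05004, and 0.0158 with the library number as a block). Its shRNA2 call was lost without any one of 8 libraries (adjusted p 0.0584 to 0.141), all but shRNA1 library 0, and with centred libraries (0.0526).

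Among the other glycerol-3-phosphate and lysophospholipid acyltransferases, 13 genes were measured. With both hairpins, 4.54% of all genes rose and 3.01% fell, and here Gpat3 rose and Gpat4 fell. These paralogs attach the first acyl chain to glycerol 3-phosphate in the endoplasmic reticulum, the step before that of Agpat5. Gpat4 stood at 7.02, 7.11 and 7.02 in the control libraries, 6.44, 6.63 and 6.67 with shRNA1, and 6.71, 6.54 and 6.73 with shRNA2, with no overlap of either hairpin with control. It fell by 0.47 with shRNA1 (limma adjusted p = 0.012) and by 0.38 with shRNA2 (adjusted p = 0.0228) on the log2 scale. Gpat3 was at -0.42, -0.50 and 0.35 in the control libraries and between 0.91 and 1.32 in the hairpin libraries, with differences of 1.28 (adjusted p = 0.0263) and 1.21 (0.0323). Single-library omissions ended these calls in part: Gpat4 did not pass with shRNA1 without control library 1 (0.0597) or 2 (0.0512), nor with shRNA2 without control library 1 (0.0976) or 2 (0.0745) or shRNA2 library 1 (0.0871) or 2 (0.0574). Gpat3 did not pass with shRNA1 without control library 0 (0.0573) or 1 (0.102) or shRNA1 library 1 (0.0837) or 2 (0.0702), nor from the compared groups only (0.0779). With shRNA2 it did not pass without control library 0 (0.0698) or 1 (0.114), shRNA1 library 2 (0.054) or shRNA2 library 0 (0.0725), 1 (0.101) or 2 (0.0936). In the average, Gpat4 passed under every omission, and Gpat3 under all but that of control library 1 (0.0671). Taz, read by its Ensembl identifier as tafazzin, the cardiolipin transacylase, rose by 0.70 with shRNA1 (adjusted p = 0.0319), gave 0.61 with shRNA2 (0.0506, and 0.00358 with the block) and was named after its values were seen. Its shRNA1 call was lost without control library 1 (0.123) or 2 (0.116) or shRNA1 library 0 (0.0551) or 1 (0.0748), and from the compared groups only (0.0568), where shRNA2 passed (0.034).

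The phospholipases and acyl-CoA thioesterases act in the opposite direction, releasing fatty acids from phospholipids or from coenzyme A. Of 21 measured genes, 1 rose with shRNA1, 2 with shRNA2, 0 with both and 4 in the average, and none fell. The shares of all genes called were 12.4%, 12.9%, 7.55% and 17.6%, in that order. In the average, 9.69% of all genes were called higher and 7.89% lower. Pla2g4a, the cytosolic phospholipase that releases arachidonic acid, stood at 3.78, 3.96 and 3.92 in the control libraries, 4.69, 4.81 and 4.75 with shRNA1, and 4.56, 4.04 and 4.41 with shRNA2. It rose by 0.87 with shRNA1 (limma adjusted p = 0.00589), a call that held without any single library, while with shRNA2 the difference was 0.46 (adjusted p = 0.0518). With the library number as a block, shRNA2 passed too (0.0391). The other 3 called in the average were Pnpla8 (0.52, adjusted p = 0.0221), Acot2 (0.51, 0.0337) and Acot11 (0.98, 0.0441), a mitochondrial phospholipase and a pair of thioesterases. In the average, the Pnpla8 call was lost without any control library or shRNA2 library 1 (0.0512 to 0.077). The Acot2 call was lost without any control library, or library 1 or 2 of either hairpin (0.0607 to 0.119). The Acot11 call was lost without any control or shRNA2 library, or shRNA1 library 1 (0.0507 to 0.179), and with no intensity trend (0.0539). Pnpla8 and Acot2 were the 2 genes called with shRNA2, at 0.55 (0.038) and 0.72 (0.0212), and both calls were lost without any control library or shRNA2 library 1 or 2, with Pnpla8 also lost without shRNA1 library 1 or 2 (0.0507 to 0.127 and 0.057 to 0.0829). With the library number as a block, Pnpla8 passed with shRNA1 (0.00162), and Acot11 with shRNA1 (0.00904) and shRNA2 (0.00358), the latter also from the compared groups only (0.0297). Acot2 has a close paralog, Acot1, and reads may be shared between them.

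Of the 23 measured genes that build the phospholipid and triglyceride backbone, 0 rose and 2 fell with shRNA1, 1 rose and 0 fell with shRNA2, and none was called with both. The shares of all genes were 6.92% higher and 5.49% lower with shRNA1, 7.27% and 5.67% with shRNA2, and 7.55% with both. Pcyt1b, an isoform of the rate-limiting enzyme of phosphatidylcholine synthesis, fell by 1.16 with shRNA1 (limma adjusted p = 0.0145) and gave -0.65 with shRNA2 (adjusted p = 0.0965). Its average was -0.90 (0.0155), a call lost without control library 0 (0.0547), 1 (0.0604) or 2 (0.0578), and the shRNA1 call was lost without control library 1 (0.0551) or 2 (0.0537). Mogat1, a monoacylglycerol acyltransferase at a low level in the control libraries (0.48, -0.08 and 0.04), rose by 1.55 with shRNA2 (0.0323) and gave 1.01 with shRNA1 (0.123, and 0.0298 with the library number as a block). The shRNA2 call of Mogat1 was lost without control library 1 (0.114) or 2 (0.105) and without shRNA2 library 0 (0.0825), 1 (0.103) or 2 (0.0641). Ptdss1, the phosphatidylserine synthase that acts on phosphatidylcholine, fell by 0.41 with shRNA1 (0.0428), gave -0.13 with shRNA2 (0.47) and was named after its values were seen. Its shRNA1 call was lost without any one of 7 libraries (0.0601 to 0.154), all but shRNA1 library 2 and shRNA2 library 0, from the compared groups only (0.0828) and with no intensity trend (0.0567).

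Of 8 measured acyl-CoA and fatty acid carriers, 1 was called with both hairpins, beside 7.55% of all genes, and no other was called. This was Acbd4, an acyl-CoA-binding protein found at peroxisomes. It stood at 3.72, 3.48 and 3.54 in the control libraries, 4.24, 4.13 and 3.94 with shRNA1, and 4.20, 4.29 and 4.41 with shRNA2, with both hairpins above the control range. The log2 rise was 0.52 with shRNA1 (limma adjusted p = 0.0215) and 0.72 with shRNA2 (adjusted p = 0.00662). The shRNA1 call was lost without control library 1 (0.0924) or 2 (0.0853) or shRNA1 library 1 (0.0612) and from the compared groups only (0.0555), and the shRNA2 call held without any single library. Of 12 measured partners of lipid peroxidation, 0 was called with shRNA1 and 1 with shRNA2, beside 12.4% and 12.9% of all genes. Cyb5r1, an oxidoreductase that feeds electrons to lipid peroxidation together with Por, rose with shRNA2 by 0.48 (adjusted p = 0.0145) and gave 0.33 with shRNA1 (0.0507, and 0.0327 with the library number as a block). The shRNA2 call of Cyb5r1 was lost without control library 1 (0.0665) or 2 (0.0649) or shRNA2 library 1 (0.0576) or 2 (0.0628).

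**Figure D4:**
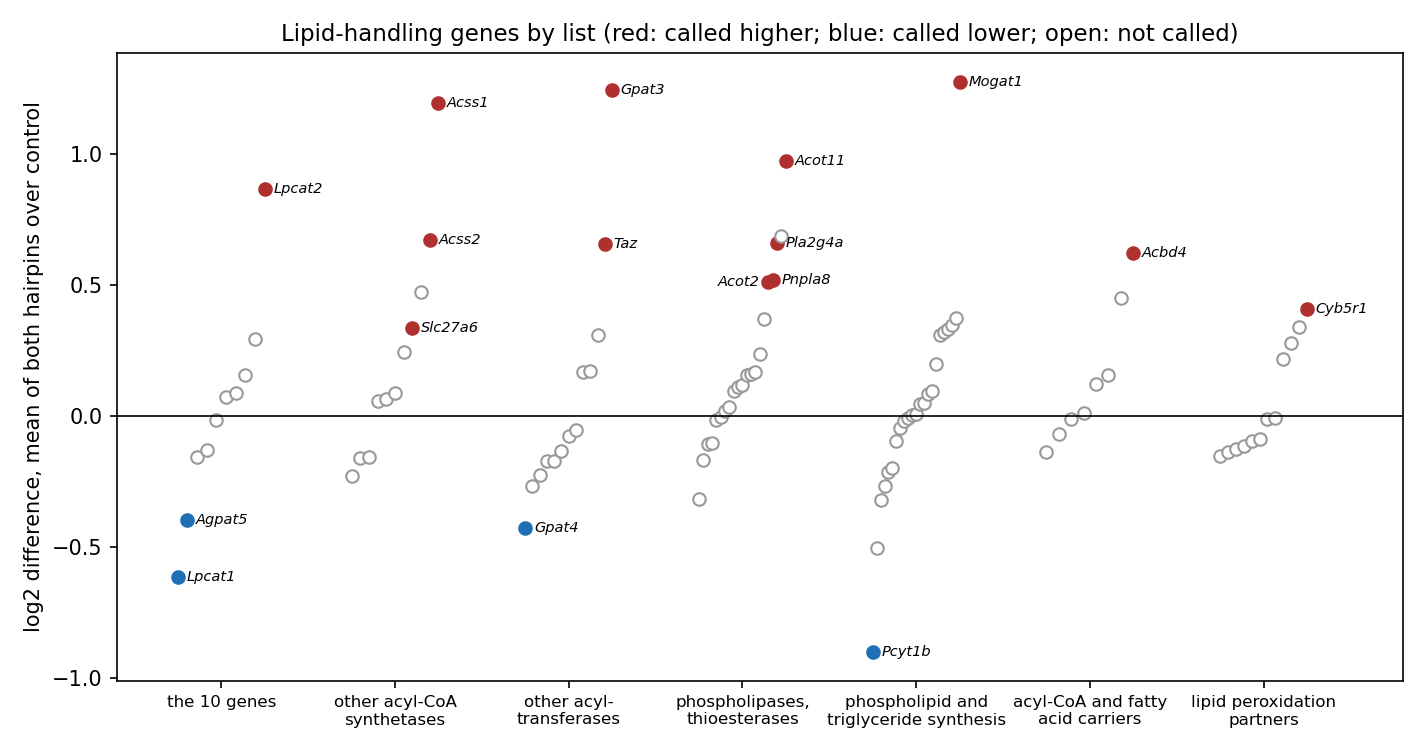
Log2 difference from control, averaged over both hairpins (vertical axis), of the 10 genes and of every measured gene of the 6 pathway lists, 1 point a gene, with called genes filled and named. Called genes outside the 10 are 12 above 0 and 2 below, Gpat4 and Pcyt1b.

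**Figure D5:**
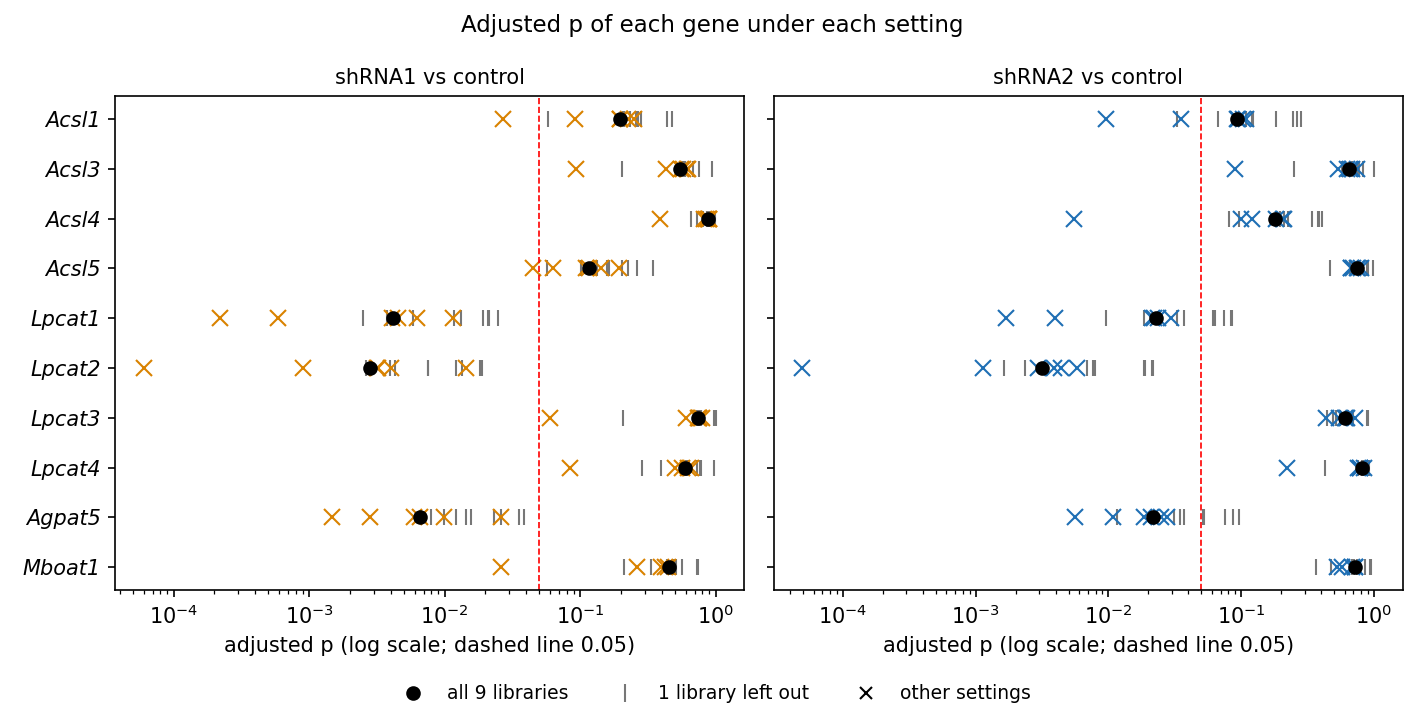
Adjusted p (horizontal log axis) of each of the 10 genes against control under each setting, with shRNA1 on the left and shRNA2 on the right. The dot is the fit on all 9 libraries, bars leave out 1 library and crosses are the other settings. Lpcat2 stays left of the dashed line at 0.05 in every setting shown, while Lpcat1 and Agpat5 cross it with shRNA2 when some libraries are left out.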

How the data were processed

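Messenger RNA was measured in 9 libraries of B16.SIY cells, 3 for each hairpin group, with groups and library numbers from the sample titles. The labels do not state separate cultures, so the p-values rest on the spread between libraries of a group, and this spread may be technical. The deposited table holds 1 log2 value per gene and library, and, per the file headers, the authors' own fold changes, t scores and p-values of both hairpins. Tools named in the submitters' processing notes are kallisto, FastQC and limma, with no version. The genome build, the annotation, the strand setting and any low-gene filter were not given in the sources used here. Raised to the power of 2, the deposited log2 values summed to between 969465 and 1045849 per library. Read totals are unknown, so precision rests on the spread between libraries. The authors' p-values, t scores and fold columns (log2) were used only where their table is named, and to link columns to hairpins: the fold changes headed shRNA1 lay within 0.05 of the columns used here for shRNA1 in 99.95% of genes, and those headed shRNA2 of the other columns in 99.7%. If the headings were exchanged, so would be the hairpin names in the results. Symbols were assigned by Ensembl identifier for 10759 of 10762 genes, and 0 library columns were without a sample.

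Differences were tested with limma 3.58.1 in R 4.3.3 (trended prior, 3.3 prior and 6 residual degrees of freedom) on all 9 libraries, with Benjamini-Hochberg adjustment over all genes. The script was tested on simulated data with independent noise in each library. Deviations shared by same-numbered libraries were not part of that simulation, so it gives no error rate for them. Same-numbered libraries of different groups deviated together in every pair (correlations 0.126 to 0.644). Libraries 1 and 2 of different groups did so to a like degree (0.128 to 0.531), so that only number 0 stood apart. A pairing by number is thus not shown for numbers 1 and 2. An alternative nevertheless took the library number as a block. That result is printed beside a result whose call it changes. Other alternatives were the compared groups only, centred libraries, removal of the lowest 25% of genes, no intensity trend, omission of each library, and omission of the 3 libraries numbered 0. The 10 genes and the pathway lists were chosen with earlier results of these data known. From each list, up to 6 genes called with both hairpins were named, failing that up to 4 called in the average, failing that the 2 with the smallest adjusted p in the average. Similar genes were the 3 with the highest Pearson correlation over the 9 libraries. Gene positions are from GENCODE M21 (GRCm38) and upstream sequences from RefSeq (GRCm38.p6). Both may differ from the annotation of the authors.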

Additional observations from a re-analysis of the deposited data

How the results depend on the processing

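Among the 10 genes, the called direction of Lpcat2, Lpcat1 and Agpat5 was the same under every alternative run. Without single libraries, 338 of 360 log2 differences of the 10 genes kept their direction and side of the threshold, 10 lost a call, 2 gained one and 10 changed sign. Most of the 360 were not called in the fit on all 9 libraries. Omission of a library from a group outside the comparison cannot change the log2 difference, so the direction was fixed in those cases. All 10 lost calls were shRNA2 calls of Lpcat1 or Agpat5. Under the other settings 209 of 222 were kept, 10 gained a call and 3 changed sign. The causes of these changes were not tested.

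Without the 3 libraries numbered 0, the number of the 10 genes called was 6 with shRNA1, 5 with shRNA2, 5 in the average and 1 between hairpins. Of all genes, 34.5%, 37.3%, 41.4% and 8.87% were called there, in that order. Log2 differences under that setting were 0.34, 0.43 and 0.38 for Acsl1 (shRNA1, shRNA2, average), 0.068, 0.29, 0.18 and, between hairpins, 0.22 for Acsl4, -0.24 for Acsl5 and -0.35 for Mboat1 (both shRNA1), 0.046 for Lpcat2 and -0.013 for Gpat4 between hairpins, and 0.074 for Lpcat3 in the average. With the replicate block, Acsl1 was called at 0.34 (shRNA2) and 0.29 (average). No other call of the 10 genes changed under the block. Decr2 between hairpins was not called from those 2 groups only (-1.66, limma adjusted p = 0.116).

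Of the 88 list genes, 9 were called with shRNA1, 10 with shRNA2, 14 in the average, 5 with both and 0 between hairpins. With the replicate block these were 27, 18, 30 and 15, in that order. Without the libraries numbered 0 they were 34, 33, 41, 20 and, between hairpins, 7. With the lowest 25% of genes removed they were 5, 6, 8 and 2. That setting also took list genes at a low level out of the fit, among them Acss1, Gpat3, Pcyt1b and Mogat1. Fewer than 88 list genes were thus tested, and these counts cannot be set against the 88. The compared groups only gave 5 with shRNA1, 14 with shRNA2 and 3 with both. Over all genes, the calls with shRNA1, shRNA2, both and between hairpins went from 1336, 1392, 813 and 49 to 2646, 2583, 1659 and 201 with the block, and to 3711, 4011, 2547 and 955 without the libraries numbered 0. The average went from 1892 to 3263 and 4452. From the compared groups only, shRNA1, shRNA2, both and between hairpins gave 675, 1803, 480 and 6.

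Slc27a6 between hairpins was -0.046 without the libraries numbered 0.

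Leaving out each library in turn, the 10 genes gave 1 to 3 calls with shRNA2, 1 to 3 with both and 3 to 4 in the average. The list genes gave 3 to 15 with shRNA1, 3 to 17 with shRNA2, 5 to 19 in the average and 2 to 9 with both, and all genes 328 to 1579, 406 to 2450, 616 to 2642 and 188 to 1062, with 3 to 94 between hairpins. Log2 differences ran with shRNA1 from -0.077 to 0.048 for Acsl4 and from -1.23 to -0.90 for Decr2. With shRNA2 they ran from 0.27 to 0.46 for Acsl1, -0.55 to -0.38 for Lpcat1, -0.163 to 0.025 for Lpcat3, -0.074 to 0.303 for Lpcat4, -0.37 to -0.28 for Agpat5 and -0.247 to 0.055 for Mboat1. In the average they ran from 0.22 to 0.41 for Acsl1, -0.081 to 0.107 for Lpcat3 and -0.025 to 0.352 for Lpcat4. Between hairpins, Taz ran from -0.242 to 0.042, Slc27a6 from -0.076 to 0.062, and the others from -0.027 to 0.007 for Acsl3, -0.086 to 0.015 for Lpcat2, -0.024 to 0.261 for Mboat1, -1.84 to -1.49 for Decr2, -0.167 to 0.041 for Gpat3, -0.041 to 0.187 for Pnpla8 and -0.082 to 0.527 for Acot11; the other sign changes of Slc27a6 were -0.015 and -0.008, and the less extreme negative values were -0.018 for Pnpla8 and -0.016 for Acot11.

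With 3 libraries a group and no read totals, differences inside the printed intervals are not resolved. Lpcat4, Mboat1 and Decr2 have no value with the lowest 25% of genes removed. The same holds for list genes at a low level, such as Acss1, Gpat3, Pcyt1b and Mogat1. The average has no setting with fewer groups.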
